A study of Mus musculus with 4 samples.

Results

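The nuclear genes of the oxidative phosphorylation complexes were taken from the deposited gene table by their symbols, with pseudogene symbols and the assembly factors named Ndufaf left out. The rule gave 85 of the 51912 genes: 35 of complex I, 4 of complex II, 9 of complex III, 20 of complex IV and 17 of complex V. RNA had been sequenced from pancreatic β cells of mouse neonates at day 13, sorted for mCherry, in 2 libraries of each genotype. Control mice carried Rosa26-lsl-H2B-mCherry/+, Ucn3-Cre/+, Robo1+/+ and Robo2+/+. Robo mutant mice carried the same Rosa26 reporter and Ucn3-Cre/+ together with Robo1delta/delta and Robo2flx/flx. All 4 libraries therefore shared the nuclear reporter and 1 copy of Ucn3-Cre, which is active as β cells mature. The Robo2 alleles are lost only where that Cre acts, while the Robo1 allele is given as deleted. The series title concerns Roundabout receptors of β cells and islet architecture, and says nothing of respiration. No label states that each library is a different animal or pool, and p-values therefore measure the spread between libraries, which may be technical.

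Totals were 38886129 to 49593712 estimated counts per library. The check of the labels held, with Robo1 at 48.5, 104, 22.3 and 21.0 CPM (depth-scaled counts, with library totals adjusted by the TMM method of edgeR) in control 1, control 2, mutant 1 and mutant 2, and Robo2 at 75.2, 118, 32.7 and 25.6 CPM. All 10 β-cell markers were detected in every library, led by Ins2 at 99690 to 153067 CPM, and 12 acinar markers summed to 5478, 608, 2700 and 49870 CPM. The sum of 5 stromal markers was 1846, 536, 927 and 8.95 CPM in the same order, and Col1a1, Rgs5 and Pdgfrb were at 0 in mutant 2. The 10 β-cell markers summed to 231264, 197535, 227395 and 160199 CPM, with mutant 2 the lowest library for 8 of them. The 4 delta-cell markers summed to 1062, 980, 2505 and 1288 CPM, and all 4 had a positive log2 change. Mutant 2 thus stood apart by high acinar, low stromal and low β-cell transcripts. The part of these cells in the results was not tested. In bulk samples fewer cells of a type and less RNA per cell cannot be told apart.

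Oxidative phosphorylation passes electrons from NADH through complex I, and from succinate through complex II, to coenzyme Q, complex III, cytochrome c and complex IV. The proton gradient built on the way drives complex V, the ATP synthase. In β cells the ATP made in this way closes potassium channels and so couples glucose to insulin release. Most subunits are encoded in the nucleus and imported, whereas a core of complexes I, III, IV and V is encoded by the mitochondrial genome. Promoters of the nuclear genes are known for sites of NRF1, GABPA, YY1 and ESRRA.

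Promoter sequences are shown for Sdha, Cox6a1 and Atp5b, the highest genes per transcript length of complexes II, IV and V, and for the trio of genes that encode the c subunit of the ATP synthase rotor. That trio is shown because its members make the same mature subunit from separate promoters. Each is the stretch of 250 bases before the transcription start that RefSeq gives (build GRCm38.p6), 5′ to 3′. GENCODE M21 places some starts elsewhere, and a stretch can then overlap a transcript. Capitals mark matches to the NRF1 motif (GCGC, any base, TGCGC) or the ESRRA motif TCAAGGTCA on either strand.

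Sdha, chr13:74350241-74350490, minus strand: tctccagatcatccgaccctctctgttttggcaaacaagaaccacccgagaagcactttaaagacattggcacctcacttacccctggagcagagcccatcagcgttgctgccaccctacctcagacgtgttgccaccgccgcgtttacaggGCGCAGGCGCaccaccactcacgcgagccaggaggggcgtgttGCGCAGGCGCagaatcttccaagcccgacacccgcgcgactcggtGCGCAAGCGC

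Cox6a1, chr5:115348959-115349208, minus strand: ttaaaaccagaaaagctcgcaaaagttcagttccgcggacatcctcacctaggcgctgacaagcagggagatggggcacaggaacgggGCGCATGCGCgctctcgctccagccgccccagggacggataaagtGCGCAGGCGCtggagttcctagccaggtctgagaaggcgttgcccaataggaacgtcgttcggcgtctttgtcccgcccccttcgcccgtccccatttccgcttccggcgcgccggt

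Atp5b, chr10:128083057-128083306, plus strand: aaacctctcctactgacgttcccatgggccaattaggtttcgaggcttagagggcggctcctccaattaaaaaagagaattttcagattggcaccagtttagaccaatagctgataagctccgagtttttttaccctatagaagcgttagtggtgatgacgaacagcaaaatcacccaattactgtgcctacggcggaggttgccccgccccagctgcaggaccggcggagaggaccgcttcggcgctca

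Atp5g1, chr11:96075632-96075881, minus strand: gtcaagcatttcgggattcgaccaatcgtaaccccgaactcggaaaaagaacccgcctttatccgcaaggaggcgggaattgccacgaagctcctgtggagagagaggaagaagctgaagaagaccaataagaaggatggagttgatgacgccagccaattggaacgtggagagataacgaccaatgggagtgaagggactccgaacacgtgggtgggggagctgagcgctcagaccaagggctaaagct

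Atp5g2, chr15:102671048-102671297, minus strand: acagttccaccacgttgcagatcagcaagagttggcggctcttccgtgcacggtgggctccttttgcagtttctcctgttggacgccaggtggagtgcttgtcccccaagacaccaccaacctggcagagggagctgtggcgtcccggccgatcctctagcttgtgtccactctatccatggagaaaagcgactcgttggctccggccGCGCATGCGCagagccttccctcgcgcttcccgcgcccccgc

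Atp5g3, chr2:73911327-73911576, minus strand: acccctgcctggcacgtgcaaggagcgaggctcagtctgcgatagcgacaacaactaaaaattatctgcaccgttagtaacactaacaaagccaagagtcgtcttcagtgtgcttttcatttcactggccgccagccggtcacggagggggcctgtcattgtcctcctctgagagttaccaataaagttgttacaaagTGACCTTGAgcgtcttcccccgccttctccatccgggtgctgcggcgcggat

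The promoter of Sdha held 3 NRF1 matches, beginning 98, 55 and 10 bases before the start, and that of Cox6a1 held 2, at 162 and 117. Within the rotor trio, Atp5g2 had an NRF1 match at 42 bases and Atp5g3 an ESRRA match at 52 bases, while the Atp5g1 stretch had neither, nor had that of Atp5b. Atp5g3 also had an NRF1 match that begins 12 bases after the start, outside the stretch shown. RefSeq promoters matched 69 of the 85 genes. Over 300 bases, 250 before and 50 after the start, the NRF1 motif was present for 17 of the 69 (24.6%), against 10.7% of 11346 tested genes matched by symbol and 5.19% of all 27025 genes with a promoter. The YY1 motif AAGATGGC was present for 11 (15.9%, against 4.92% and 3.19%), in 9 of them after the start, as in Ndufs4, Ndufb8 and Ndufa9. The ESRRA motif was present for 2, Sdhd and Atp5g3 (2.90%, against 0.30% and 0.466%). The GABPA motif CCGGAAGT was present for 5 (7.25%), against 8.42% of tested genes and 4.31% of all, and the GC box GGGCGG for 28 (40.6%), against 66.9% and 38.2%. Both strands were searched, the motifs do not contain one another, and a match is a description of letters, not a bound site.

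Levels were compared between genes only per length, as CPM per kilobase of transcript (the median length of a gene's coding GENCODE M21 transcripts), averaged over the 4 libraries with the SD over them. Atp5b (ENSMUSG00000025393, chromosome 10, 128083273 to 128090391, plus strand, GRCm38), the catalytic β subunit of the F1 head, was the highest at 465 ± 17.2. Its partner Atp5a1 followed at 282 ± 13.6, apart from Atp5b by more than the spread. The next genes did not differ beyond their spread: Atp5g3 stood at 215 ± 10.3, Ndufa1 at 213 ± 42.6, Cox6a1 at 210 ± 20.6, Cox8a at 208 ± 21.9 and Uqcrb at 202 ± 34.0 (SD, n = 4 each). Across the 77 genes with a mean of at least 10 CPM the median was 90.7 and the lowest values were those of Atp5sl (7.83 ± 0.49) and Atp5s (13.4 ± 2.33). Both carry an ATP synthase symbol without being structural subunits.

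**Figure D1:**
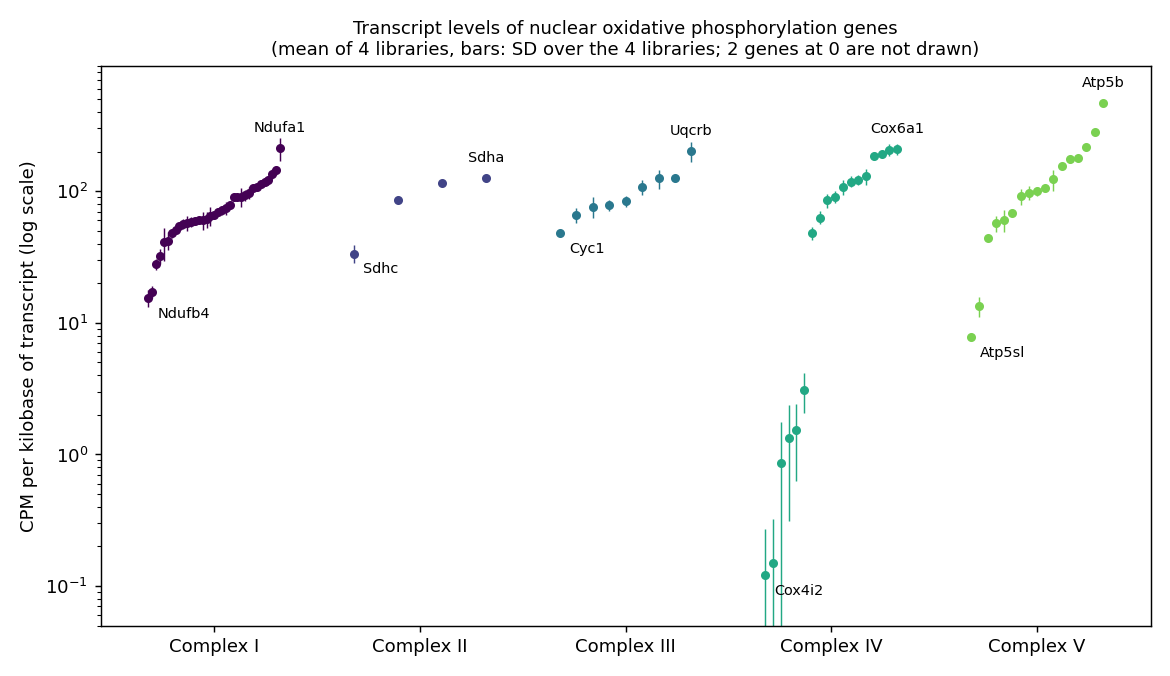
CPM per kilobase of transcript (log scale) of each gene by complex, ordered by level, as the mean of 4 libraries with the SD over them. Atp5b leads at 465, and 6 complex IV genes with levels of 3.12 and below lie far under the rest, while 2 genes at 0 are not drawn.

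By complex, the median level per kilobase over genes of at least 10 CPM was 66.1 for complex I (35 genes), 101 for complex II (4), 84.3 for complex III (9), 121 for complex IV (12) and 99.8 for complex V (17). In complex I, the NADH dehydrogenase, the highest gene per length was Ndufa1, a small subunit of the membrane arm encoded on chromosome X. With the length of the principal transcript Ndufb8 led, at 225 against 213 for Ndufa1, because its median and principal transcripts differ in length (1411 and 680 bases). In complex II, the succinate dehydrogenase, the flavoprotein gene Sdha (125 ± 8.44) and the anchor gene Sdhd (116 ± 5.0) stood above Sdhb (86.6 ± 5.04) and Sdhc (33.6 ± 5.16). In complex III, Uqcrb was followed by the core protein gene Uqcrc1 (126 ± 7.42) and by Uqcr11 (125 ± 21.1), and the cytochrome c1 gene Cyc1 was the lowest (47.9 ± 1.10).

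No gene of the group passed the test between genotypes. With edgeR's quasi-likelihood test, 0 of the 81 tested genes had an adjusted p under 0.05, as was so for all 16517 genes tested (0.0%), and the smallest adjusted p was 0.917. At an unadjusted p under 0.05 the count was also 0 of 81, against 6.21% of all genes and 5.53% of genes with a mean of at least 10 CPM. By direction, the background was 1.99% and 2.53% higher and 4.21% and 3.01% lower. DESeq2 called 0 of the 81, against 0.914% of all genes and 0.71% of those with at least 10 CPM, and limma-trend called 0. The median log2 change was -0.018, beside -0.013 over all genes tested, with 32 genes above and 49 below 0.

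The intervals were narrow beside those of all genes. The 95% interval of the log2 change lay within 2-fold either way for 76 of 81 genes (38.4% of all tested genes and 69.8% of those with at least 10 CPM) and within 1.5-fold for 51 of 81 (14.0% and 25.6%). Over the 77 abundant genes the log2 changes ran from -0.21 (Ndufc2) to 0.28 (Ndufa4). The Ndufa3 interval was the exception among those 77, from -1.13 to 1.01. Intervals rest on 2 libraries per genotype, and a p that misses the threshold does not show that levels were equal.

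**Figure D2:**
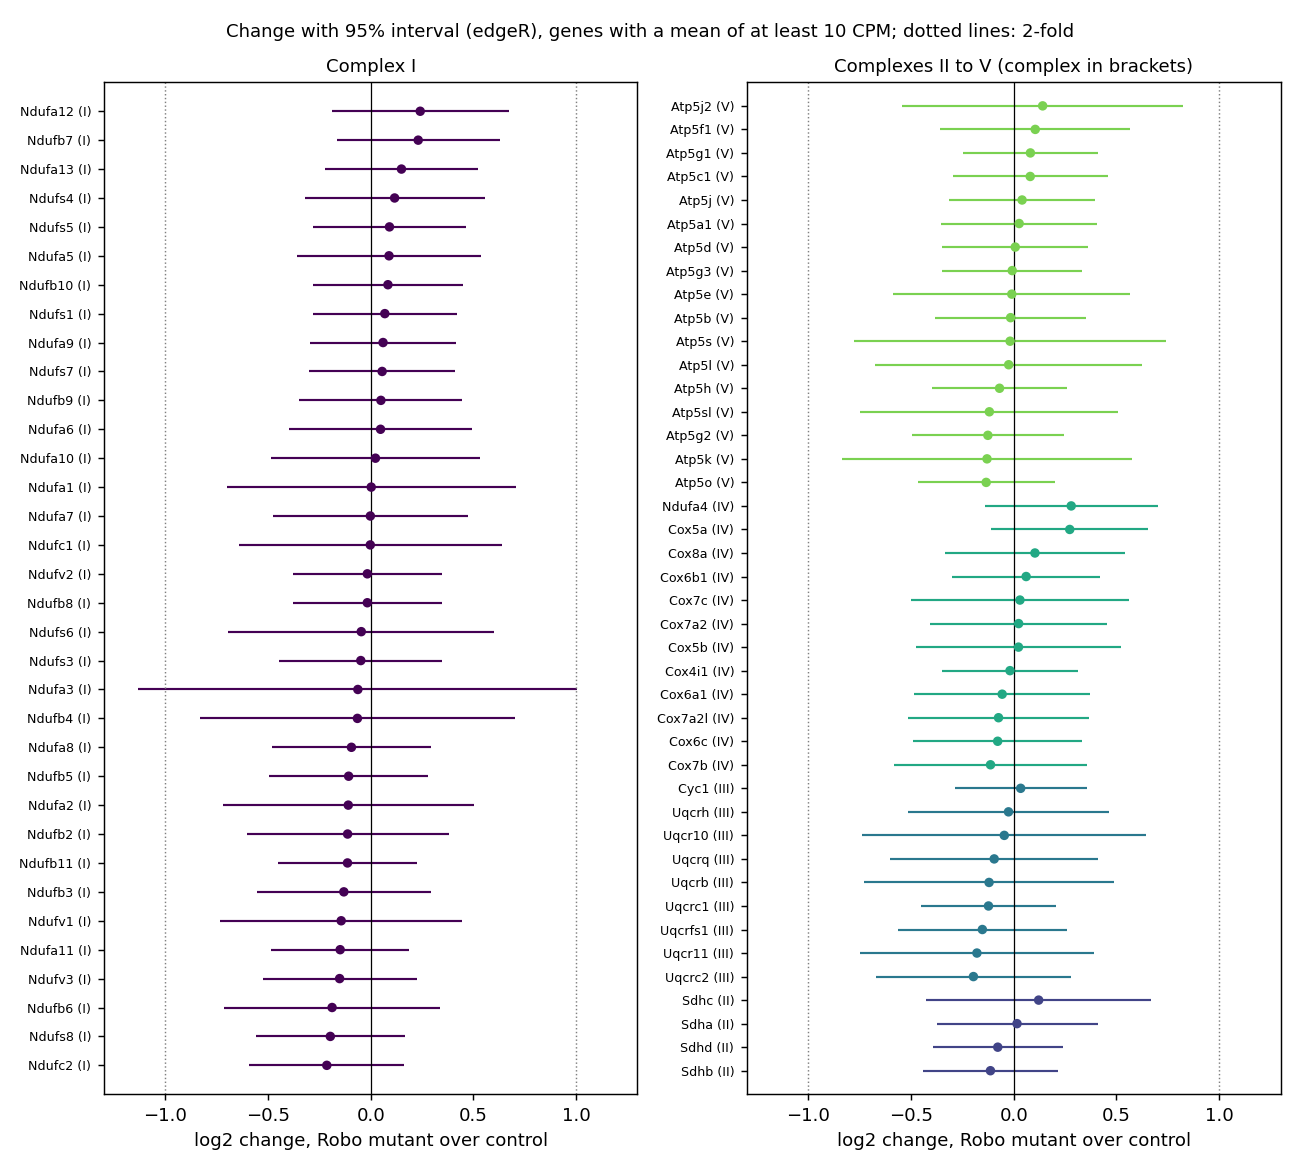
Log2 change of Robo mutant over control (horizontal axis) with its 95% interval from edgeR for 76 of the 77 genes with a mean of at least 10 CPM, complex I at left and complexes II to V at right. Every interval drawn includes 0, and all but that of Ndufa3 stay between the dotted lines at a 2-fold difference.

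The share of genes whose groups did not overlap was below that among all genes. Both mutant libraries stood above both controls in 7 of 81 (8.64%, against 16.1% of all tested genes) and below both in 12 of 81 (14.8%, against 20.4%). With DESeq2's size factors, as with edgeR's RLE factors, these counts were 8 and 7. With library totals only they were 3 and 15. The genes above both controls were Ndufb7, Ndufa12, Ndufa13 and Ndufa5 of complex I, Cox5a and Ndufa4 of complex IV and Atp5g1 of complex V.

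Complex I holds a peripheral arm, with the N module that oxidizes NADH and the Q module that reduces coenzyme Q, and a membrane arm that moves protons. The median log2 change was -0.0088 over 10 N module genes, 0.0042 over 6 Q module genes and -0.062 over 19 genes of the membrane arm. Ndufb7, a small membrane arm subunit, was at 43.6 and 41.5 CPM in control 1 and 2 and at 46.8 and 53.1 CPM in mutant 1 and 2. Ndufa12, which sits in the N module, was at 43.0, 44.8, 56.8 and 47.0 CPM in that order, so that mutant 1 was the high library. Their log2 changes were 0.23 ± 0.15 and 0.24 ± 0.16 (SE, n = 2 each). Without mutant 1 that of Ndufa12 was 0.099, and without mutant 2 that of Ndufb7 was 0.14.

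Lower in both mutant libraries were Ndufc2, Ndufs8, Ndufa11, Ndufb11 and Ndufa8. Ndufc2, of the membrane arm, was at 56.0, 59.1, 52.6 and 46.7 CPM. Ndufs8, an iron-sulfur subunit of the Q module (chromosome 19, 3908863 to 3912774, minus strand, GRCm38), was at 61.2, 57.8, 54.3 and 49.6 CPM. The log2 changes were -0.21 ± 0.14 and -0.20 ± 0.14 (SE, n = 2 each), with unadjusted p of 0.199 and 0.215 in edgeR. In both genes mutant 2 was the lowest library, and without it the log2 changes were -0.13 and -0.13. Over the 7 core subunits of complex I encoded in the nucleus, which hold its flavin and iron-sulfur centres, the median log2 change was -0.048, and over the 28 accessory subunits it was -0.0089. The core gene Ndufv1, which encodes the flavin-binding subunit, was at 102, 107, 76.4 and 113 CPM, and only mutant 1 lay below the controls. Without mutant 2 its log2 change was -0.45, which rests on the low mutant library alone.

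Most other genes of complex I had interleaved groups. In the N module, Ndufs1, the largest subunit with several iron-sulfur clusters, was at 143, 162, 157 and 163 CPM, and Ndufv2, the partner of Ndufv1, at 94.7, 89.1, 97.2 and 84.6 CPM. Ndufs4, whose loss models Leigh syndrome in mice, was at 46.0, 45.1, 54.3 and 44.4 CPM, with only mutant 1 above the controls. In the Q module, Ndufs7, which holds the last iron-sulfur cluster before coenzyme Q, was at 56.8, 56.0, 55.6 and 61.7 CPM. Its log2 change was 0.056 ± 0.13 (SE, n = 2 each). In the membrane arm, Ndufa10 was at 57.3, 72.1, 58.9 and 72.6 CPM and Ndufc1 at 33.1, 32.8, 39.2 and 26.7 CPM. Both genotypes thus held a high and a low library for Ndufa10, and the mutant libraries of Ndufc1 lay on either side of the controls. Ndufa13, a subunit also known as GRIM-19, was at 60.8, 53.3, 64.8 and 61.9 CPM, with a log2 change of 0.15 ± 0.14 (SE, n = 2 each) that was 0.061 without control 2 and 0.25 without control 1.

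In complex II, Sdha stood at 337, 385, 347 and 383 CPM, with the groups interleaved. Sdhb, its iron-sulfur partner, was at 104, 101, 90.9 and 99.1 CPM, and the anchor gene Sdhd at 143, 150, 143 and 135 CPM. The mutant libraries were the lower for both of these, for Sdhd by less than 1 CPM. The differences were small, with log2 changes of -0.11 ± 0.12 and -0.077 ± 0.12 (SE, n = 2 each). That of Sdhb was -0.051 without mutant 1, and that of Sdhd was -0.034 without mutant 2 and -0.044 without control 2.

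For complex III the sums of the mutant libraries lay below those of the controls, by an amount that depended on the library. Its 9 genes summed to 854, 819, 808 and 734 CPM, a log2 ratio of -0.12, which was -0.048 without mutant 2 and -0.19 without mutant 1. Of the 9 genes 8 had a negative log2 change, with a median of -0.12. Neither of these was tested. Uqcrc1, a core protein of the matrix side, was at 209, 224, 202 and 196 CPM, with a log2 change of -0.12 that was -0.069 without control 2. The Rieske iron-sulfur gene Uqcrfs1 was at 112, 113, 90.5 and 112 CPM. For Uqcrfs1 the groups were separated by less than 1 CPM, and its log2 change of -0.15 was -0.0050 without mutant 1 and -0.31 without mutant 2. Uqcrc2 (127, 141, 132 and 102 CPM) and Uqcrb (119, 106, 124 and 83.3 CPM) were low in mutant 2 alone. Without mutant 1 their log2 changes were -0.40 and -0.43, which rest on the low mutant library alone. Cyc1 did not share this, at 70.5, 73.5, 74.4 and 73.1 CPM.

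Complex IV, cytochrome c oxidase, held the pair of genes with the smallest p. Cox5a (chromosome 9, 57521274 to 57532426, plus strand, GRCm38), a matrix-side subunit, was at 37.6 and 36.2 CPM in control and 45.7 and 43.5 CPM in mutant cells. The controls and mutants did not overlap, and the log2 change was 0.27 ± 0.14 (SE, n = 2 each; 95% interval -0.11 to 0.65), with an unadjusted p of 0.122 and an adjusted p of 0.917 in edgeR. Ndufa4 (chromosome 6, 11900292 to 11907497, minus strand, GRCm38), named for complex I but now counted as a subunit of complex IV, was at 48.6, 40.7, 55.4 and 53.0 CPM. Its log2 change was 0.28 ± 0.16 (SE, n = 2 each), with an unadjusted p of 0.143 and an adjusted p of 0.922 in edgeR. Without control 2 that change was 0.16. Cox4i1, which starts assembly with Cox5a, was at 150, 141, 138 and 150 CPM and showed no such separation.

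The other general subunits of complex IV had interleaved groups. Cox5b, a zinc-binding subunit, was at 67.8, 58.3, 72.3 and 55.9 CPM, Cox7c at 76.3, 62.2, 79.9 and 61.5 CPM and Cox7a2 at 82.7, 72.3, 86.3 and 71.4 CPM. In each of these the high libraries were control 1 and mutant 1. Cox6b1, which faces cytochrome c, was instead at 94.1, 82.7, 89.3 and 95.2 CPM. Cox7a2l, a factor that joins complexes III and IV in supercomplexes, was at 98.5, 108, 109 and 86.7 CPM.

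Several complex IV subunits have isoform genes used in muscle, lung or testis. The β-cell libraries held almost entirely the general isoform. Cox6a1 took at least 98.9% of the Cox6a level per length, Cox7a2 took 96.4% to 98.1% of the Cox7a level, and Cox6b1 took 98.7% to 99.7% of the Cox6b level. Cox8b and Cox8c had 0 counts in every library, against 97.1 to 123 CPM of Cox8a, and Cox7b2 had 7, 0, 0 and 8 counts. A count of 0 allows up to 3 counts per library.

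The minor isoforms were low in number and varied between libraries. The muscle isoform Cox7a1 was at 2.05, 1.05, 1.14 and 1.23 CPM, whereas Cox6a2 had 78, 32, 61 and 0 counts and Ndufa4l2, a paralogue of Ndufa4 induced by hypoxia, had 77, 7, 73 and 0 counts. Cox4i2, the isoform known from lung and from vascular mural cells, had 11 counts in control 1, 5 in control 2 and 0 in each mutant library. With 3 counts per library as the floor in the mutants, its control mean was 2.80-fold above that floor. This figure leaves out the counting error of the 11 and 5 control counts, so it is no firm bound. Cox4i2 missed the filter on low counts. All 3 genes were at 0 in mutant 2, the library in which the stromal markers summed to 8.95 CPM, with Rgs5 and Pdgfrb at 0. In control 2, Ndufa4l2 was also low, and there Rgs5 stood at 5.40 CPM against 28.6 in control 1 and 18.8 in mutant 1. Cox4i2 did not follow that order, with 5 counts in control 2 and 0 in mutant 1. The part of stromal cells in these values was not tested. For Cox6a2 the log2 change was -0.98 ± 2.15 (SE, n = 2 each), an estimate that rests on the library at 0. Without mutant 1 it was -8.76, which is no bound, since the remaining mutant library had 0 counts.

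**Figure D3:**
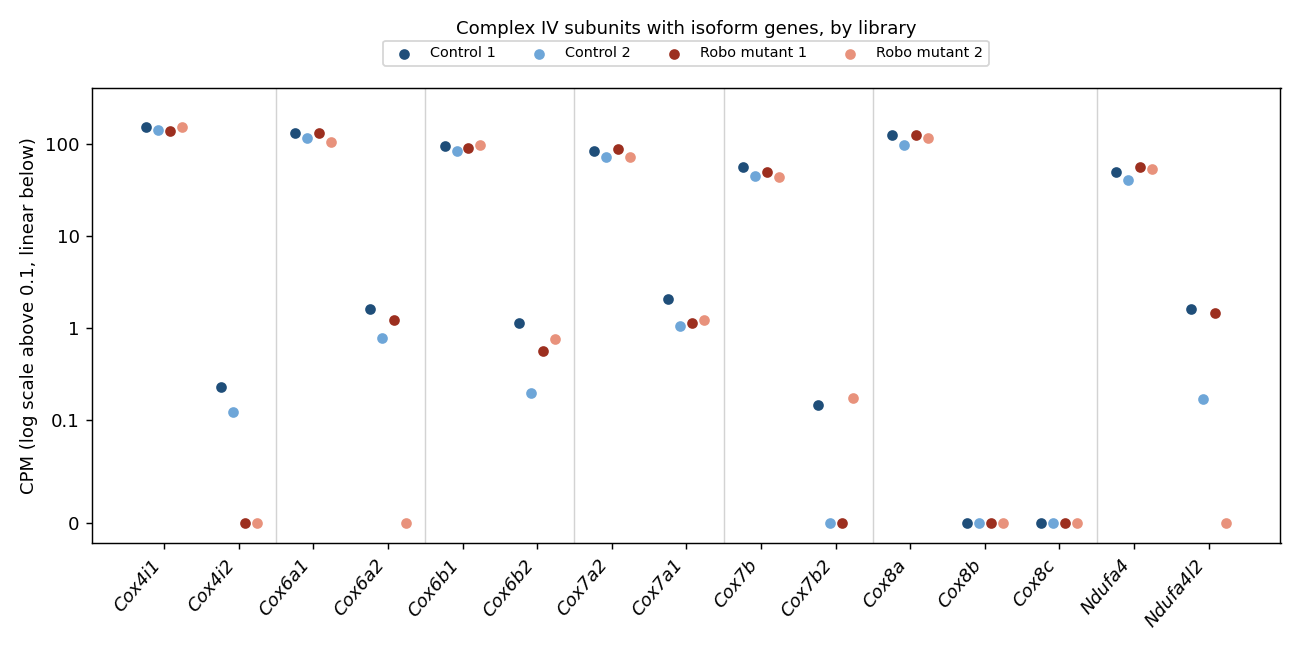
CPM of complex IV subunits that have isoform genes, by library (vertical axis linear below 0.1 CPM and log above). Each general isoform stands at 40.7 CPM or above in all 4 libraries, while the tissue isoforms stand at 2.05 CPM or below, with Cox6a2 and Ndufa4l2 at 0 in mutant 2.

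In complex V the F1 head genes showed no difference between genotypes beyond their intervals, which does not show equal levels. Atp5b was at 858, 935, 896 and 878 CPM and Atp5a1 at 686, 750, 705 and 759 CPM, with 95% intervals of the log2 change from -0.38 to 0.35 and from -0.35 to 0.41. The 5 head genes had a median log2 change of 0.0078 and the 4 peripheral stalk genes one of -0.014. Among the stalk genes Atp5o, which joins the stalk to the head, was at 60.2, 60.7, 54.3 and 55.9 CPM. Its mutant libraries were the lower ones, with a log2 change of -0.13 ± 0.13 (SE, n = 2 each). The 17 genes together summed to 2847, 2937, 2987 and 2842 CPM.

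The small membrane subunits of complex V varied between libraries of 1 genotype. Atp5l was at 79.2, 56.2, 75.9 and 57.2 CPM and Atp5j2 at 48.6, 37.5, 56.2 and 38.7 CPM, so that control 1 and mutant 1 were high for both. Of the stalk genes, Atp5f1 was at 149, 152, 184 and 140 CPM, with mutant 1 alone high, and Atp5h at 102, 101, 92.4 and 101 CPM, with mutant 1 alone low. The head gene Atp5c1, which encodes the central γ shaft, was at 193, 208, 227 and 197 CPM, with a log2 change of 0.081 ± 0.14 (SE, n = 2 each).

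In the rotor trio, Atp5g3 was at 152, 158, 163 and 146 CPM, Atp5g1 at 114, 116, 128 and 116 CPM and Atp5g2 at 61.5, 60.6, 59.6 and 52.3 CPM. Atp5g1 stood above both controls in the mutant libraries, in mutant 2 by less than 1 CPM, and Atp5g2 below both. The count ratio of Atp5g1 to Atp5g2 was 1.86 and 1.91 in control and 2.14 and 2.22 in mutant libraries. That ratio was formed after the values were seen and was not tested. The log2 changes were 0.082 ± 0.12 for Atp5g1 and -0.13 ± 0.14 for Atp5g2 (SE, n = 2 each), within their errors. Without mutant 2 they were 0.15 and -0.032, and without mutant 1 they were 0.010 and -0.22. Per kilobase of transcript the levels were 215 for Atp5g3, 99.8 for Atp5g2 and 44.3 for Atp5g1. Transcript models of Atp5g1 differ in length (2676 and 4715 bases for the median and the principal one), so its level per length is uncertain, but it was below that of Atp5g2 with either length (25.1 against 80.0 with the principal one).

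Libraries of 1 genotype differed from each other across the group. Set against the average of the 4 libraries, the median log2 deviation was 0.077 in control 1, -0.056 in control 2, 0.063 in mutant 1 and -0.090 in mutant 2. Control 1 was the highest library for 34 of 81 genes and mutant 1 for 29. Mutant 2 was the lowest for 40 and control 2 for 22. Over all 16517 genes tested, the same counts were 3726, 4534, 5114 and 2910. The 85 genes together took 0.774% and 0.800% of all counts in control 1 and 2 (95% Wilson interval 0.772% to 0.777% and 0.798% to 0.803%). The share was 0.795% in mutant 1 (0.793% to 0.798%) and 0.706% in mutant 2 (0.703% to 0.708%), and these intervals cover counting error only. The lowest share was that of the library with 49870 CPM of acinar markers.

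**Figure D4:**
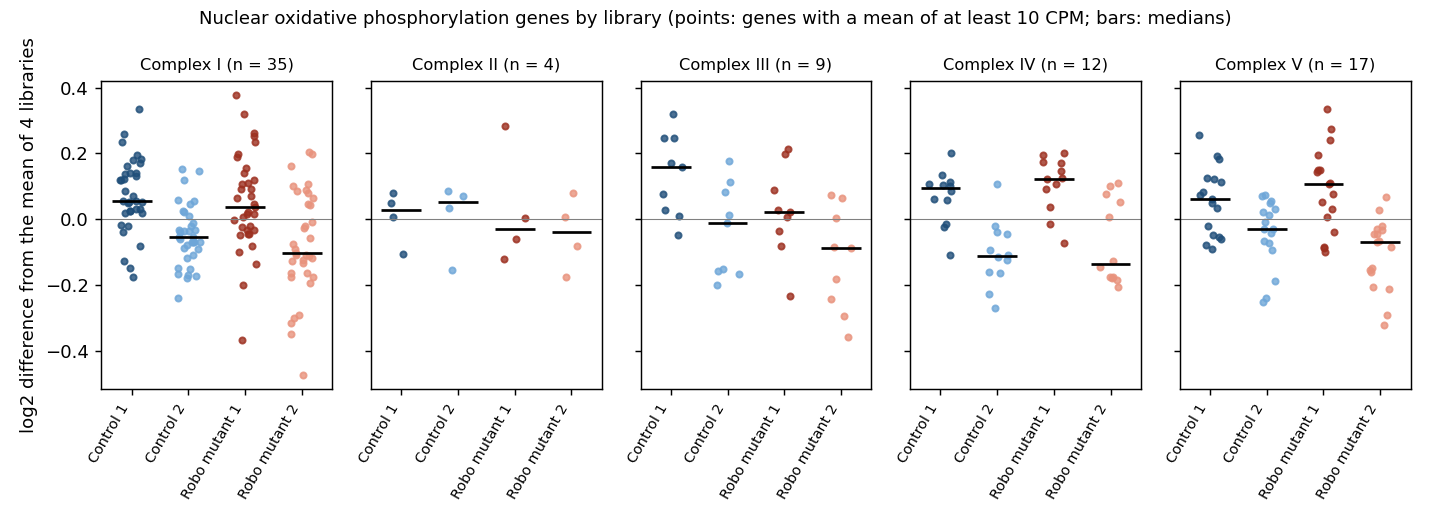
Log2 difference of each gene from its mean over the 4 libraries, by complex and library, with the median as a bar, for genes with a mean of at least 10 CPM. The medians of control 2 and mutant 2 lie below those of control 1 and mutant 1 in complexes I, III, IV and V. The medians of complex II are 0.028, 0.053, -0.029 and -0.038.

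These deviations varied with transcript length. Among the 77 abundant genes, Pearson's r between the deviation and log2 length was -0.55 in control 1, 0.53 in control 2, -0.28 in mutant 1 and 0.30 in mutant 2, a description across genes that share library and depth. The 41 genes with transcripts under 800 bases had median deviations of 0.12, -0.11, 0.11 and -0.13, and the 13 genes of at least 1600 bases had -0.049, 0.050, 0.0078 and -0.030. Control 1 and mutant 1 were both above control 2 and mutant 2 in 26 of the 41 short genes and in 2 of the 13 long ones, Ndufs4 and Sdhc. Short transcripts show it by name. Ndufa1 (419 bases) was at 97.0, 81.6, 110 and 69.1 CPM, Ndufa3 (433 bases) at 21.8, 14.6, 22.4 and 12.4 CPM, and Uqcr10 (434 bases) at 38.9, 28.6, 37.7 and 27.7 CPM. Each was higher in control 1 and mutant 1 than in control 2 and mutant 2. Among long transcripts without this order were Sdha (2900 bases), highest in control 2, and Ndufs1 (2626 bases) at 143, 162, 157 and 163 CPM.

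The same order of libraries appeared outside the group in the medians of short transcripts, but the correlation with length was weaker there. The 389 other genes with short transcripts and at least 10 CPM had median deviations of 0.033, -0.056, 0.074 and -0.069. Their 7126 counterparts of at least 1600 bases had 0.0038, 0.049, -0.026 and 0.0092. Over all 8935 other genes, Pearson's r with log2 length was 0.0345, 0.1374, -0.0967 and -0.035 in the same library order. The group had -0.55, 0.53, -0.28 and 0.30. The values 0.0345 and -0.035 thus had the opposite sign to those of the group. For mutant 2 the sign depended on the measure, as Spearman's rank correlation was 0.0464 over the other genes and 0.2861 in the group. What set the length pattern was not tested. With the trend on length removed from each library, an alternative chosen after the values were seen, 0 of 81 genes passed and the median log2 change was -0.062.

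**Figure D5:**
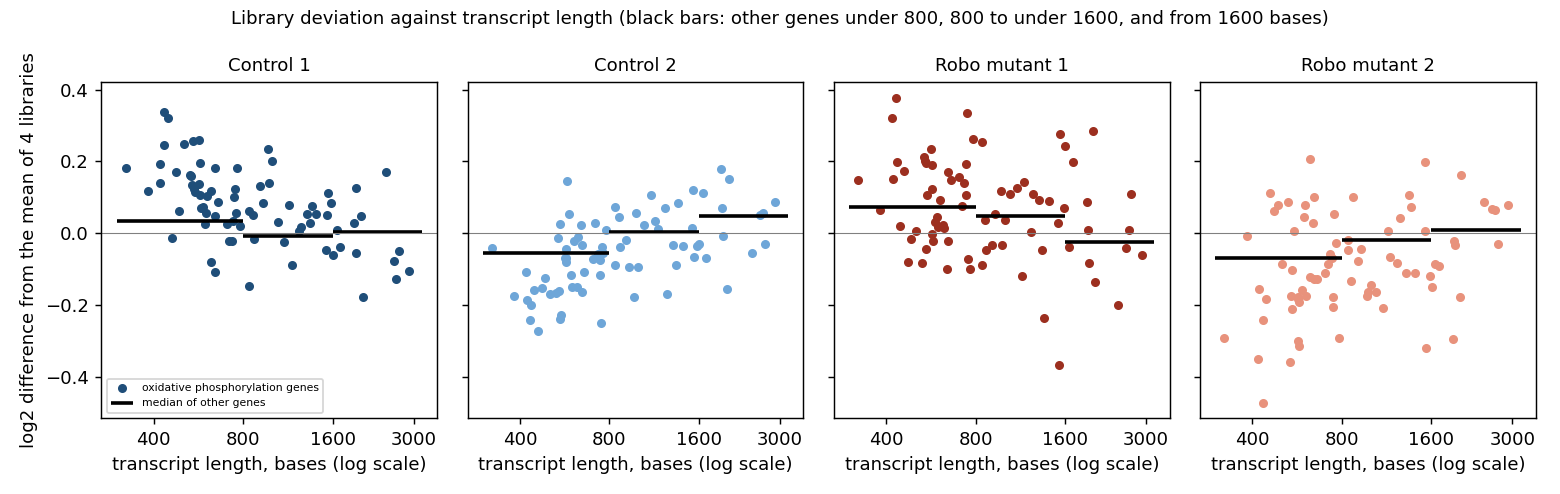
Log2 difference from the mean of the 4 libraries against transcript length (log scale), 1 panel per library. Points are the 77 abundant genes, and black bars are the medians of other genes under 800, from 800 to under 1600 and from 1600 bases. Most genes under 800 bases lie above 0 in control 1 and mutant 1 (medians 0.12 and 0.11) and below 0 in control 2 and mutant 2 (-0.11 and -0.13).

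The 13 subunit genes of the mitochondrial genome are the partners of these transcripts in complexes I, III, IV and V. They summed to 7997, 7340, 10842 and 8244 CPM, against 7796, 7632, 7885 and 7412 CPM for the 85 nuclear genes. The ratio of mitochondrial to nuclear counts was 1.03 and 0.962 in control and 1.37 and 1.11 in mutant libraries, and was not tested. The mitochondrial genes took 0.794% and 0.770% of all counts in control 1 and 2, 1.09% in mutant 1 and 0.785% in mutant 2. By this share mutant 2 lay between the controls, while its nuclear share, 0.706%, was the lowest. In edgeR 0 of the 13 passed, adjusted or at an unadjusted p under 0.05, and DESeq2 called 0. In 6 of the 13 both mutant libraries stood above both controls (46.2%, against 16.1% of all genes). Mutant 1 was the highest library for 11 of the 13, and control 2 the lowest for 11.

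Assembly factors were counted together with a list of 4 genes for assembly and inhibition of complex V. Of these 53 genes, 52 were tested and 0 passed in edgeR, adjusted or unadjusted, or in DESeq2. Their median log2 change was -0.12, beside -0.013 over all genes. Both mutant libraries stood below both controls in 17 of the 52 (32.7%, against 20.4% of all genes). They stood above both in 3 (5.77%, against 16.1% of all genes). Complex IV assembly factors gave 11 of those 17, among 23 tested (47.8%, against 20.4% of all genes). How these counts move with scaling or a left-out library was not tested. Atp5sl, which also has an assembly role in complex I, is counted both here and among the 85 genes. Surf1, needed for early assembly of cytochrome c oxidase, was at 29.3, 31.3, 23.0 and 22.0 CPM. Coa3 was at 80.1, 77.6, 66.8 and 60.2 CPM, and the insertase gene Cox18 at 12.1, 14.5, 8.44 and 7.91 CPM. Each was lower in both mutant libraries, with unadjusted p of 0.0625, 0.0682 and 0.0658 and adjusted p of at least 0.852 in edgeR. Sdhaf2, which attaches flavin to the Sdha protein, was at 34.2, 32.4, 20.9 and 25.9 CPM with an unadjusted p of 0.0550 in edgeR.

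Of the lists around the complexes 0 genes passed in edgeR when adjusted, and counts at an unadjusted p under 0.05 are set against 6.21% of all genes. Of 17 genes of electron carriers and coenzyme Q synthesis there were 2 (11.8%): Coq9, needed to make coenzyme Q, at 68.0, 69.9, 52.9 and 36.2 CPM, and Coq10b at 48.0, 37.3, 55.8 and 74.4 CPM. Of 15 regulators of mitochondrial biogenesis there was 1 (6.67%), Pprc1, a coactivator related to PGC-1α, at 31.9, 36.3, 16.6 and 20.9 CPM. Its log2 change was -0.87 ± 0.21 (SE, n = 2 each), with an unadjusted p of 0.0121 and an adjusted p of 0.680 in edgeR. In DESeq2 its adjusted p was 0.184. Of 78 mitochondrial ribosomal protein genes there was 1 (1.28%), Mrpl47, at 15.0, 14.3, 9.40 and 7.54 CPM. Of 24 import translocase genes there was 1 (4.17%), Timm29, at 102, 95.5, 73.8 and 80.7 CPM. The 16 genes of the TCA cycle and pyruvate dehydrogenase and the 7 carriers of ADP, phosphate and porin gave 0, with medians of -0.038 and 0.0026. Among 8 tested hypoxia genes there was 1 (12.5%), Adm, with 52 counts in control 1, 31 in control 2 and 0 in each mutant library.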

How the data were processed

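RNA-seq of sorted β cells was analysed in 4 libraries, 2 per genotype. The submitters' processing notes name RSEM 1.3.0, STAR 2.5.3a, edgeR 3.16.5, bcl2fastq 2.20.0.422 and GRCm38, without annotation or the role of edgeR. The deposited values were taken to be expected counts per gene, estimated by the authors with RSEM per the submitters' processing notes: they are whole numbers whose totals differ between libraries, although the deposited table is called normalized. Per the labels' protocols the library kit was SMART-Seq v4 with Nextera XT, a chemistry that does not mark strand, so reads from overlapping genes cannot be told apart. Reads of the many processed pseudogenes of these families may also be split by RSEM; the 6 pseudogene symbols left out had at most 11 counts in a library.

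The 16517 genes that reached 10 counts in 2 or more libraries were tested with the quasi-likelihood test of edgeR 4.0.16 (R 4.3.3) on TMM-scaled counts, with Benjamini-Hochberg adjustment over all genes and a threshold of 0.05. SE is the size of the log2 change divided by the square root of F, and 95% intervals use the t distribution with the fit's degrees of freedom. DESeq2 1.42.0, limma 3.58.1, other scalings and filters, and leaving out each library were alternatives. The fits were tested on simulated data with changes of 2-fold or more. Those are larger than any change of the abundant genes here, so that test does not bear on changes of this size. Deviations are log2(CPM + 0.05) minus the mean of the 4 libraries. GENCODE M21 gave lengths and positions for 51719 of 51912 gene identifiers. Genes named are the highest and lowest per length in a complex, those with the smallest p, those whose groups did not overlap, isoform genes, and examples by role chosen after their values were seen. The members and lists were chosen with earlier results of these data known. The result of 1 gene is not reported here.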

Additional observations from a re-analysis of the deposited data

How the results depend on the processing

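Under 14 alternatives, 0 oxidative phosphorylation genes passed an adjusted p of 0.05. The direction and side of the threshold of 16 named changes stayed as reported. Those 16 were chosen among genes whose groups did not overlap, so leaving out a library could hardly reverse them. Their adjusted p was at least 0.917 in edgeR, so the side of the threshold also had little room to change. Over all genes the count called was 0 in edgeR, 151 in DESeq2 and 0 to 1 when each library was left out (1 without Robo mutant 2). The number of genes above both controls, 7 in the reported fit, was 3 with library totals only and 14 to 31 when each library was left out; fewer libraries overlap less by construction. The number below both, 12 in the reported fit, was 7 with RLE factors, 7 in DESeq2 and 15 to 43 when each library was left out. The median log2 change, -0.018, ran from -0.119 to 0.057 over the left-out libraries and from -0.075 to -0.003 otherwise. Library totals only moved the median of all genes to -0.071. The summed log2 ratio of complex II was then -0.072 and that of complex V -0.047, or -0.10 with quantile normalization. No paired analysis was possible because the labels give no replicate numbers. With 2 libraries per genotype a left-out library leaves 1, assumed to vary like the other group, and the median half-width of the 95% intervals of these genes was 0.42 on the log2 scale.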
